A study of Sus scrofa with 2 samples.

Results

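The entries described here are the 100 of 668 rows of a pig muscle miRNA table whose names begin with PN. They were chosen by name alone, and the sources used here do not define the prefix. The other rows carry the prefix ssc, for named pig miRNAs (281 rows), or PC, which is not defined either (287 rows). A further 3 rows hold the letters PN inside an ssc name and were not counted as members.

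The table compares the *psoas major* muscle (PMM), an oxidative muscle of the loin, with the *longissimus dorsi* muscle (LDM), a glycolytic muscle of the back. Both came from female Landrace pigs aged 210 days, and the study used 3 pigs. RNA was pooled within each muscle before sequencing, so there was 1 library per muscle and no animal can be told from another. No difference below has a replicate check, no p-value is given, and every interval covers counting error only. Values are normalised reads as deposited, with totals of 8556672 in PMM and 8750049 in LDM. RPM is the value of an entry per 1000000 normalised reads of its library. The muscle miRNAs miR-1, miR-133a, miR-133b and miR-206 were listed in both libraries and together reached 509403 RPM in PMM and 685934 RPM in LDM, although the extraction text names adipose tissue. Of these miR-206 was higher in PMM, at 17906 RPM against 12629 RPM in LDM, while miR-1, miR-133a and miR-133b were lower in PMM. Marker miRNAs of several other cell types were higher in PMM. Those of slow fibres, miR-499 and miR-208b, summed to 3028 RPM in PMM and 556 RPM in LDM. The endothelial miR-126 had 2734 RPM in PMM and 1345 RPM in LDM, and miR-143 and miR-145 of smooth muscle summed to 29261 RPM in PMM and 17029 RPM in LDM. Of 2 fibroblast miRNAs miR-199a was listed, at 3972 RPM in PMM and 1705 RPM in LDM, and miR-214 was not. Nerve miRNAs (2 of 2 listed) summed to 26.1 RPM in PMM and 5.13 RPM in LDM, and leukocyte miRNAs (2 of 3, without miR-223) to 128 RPM in PMM and 80.2 RPM in LDM. The red cell miR-451 had 1027 RPM in PMM and 853 RPM in LDM, and the liver miR-122 had 1.17 RPM in PMM and 0.921 RPM in LDM. Of 5 epithelial miRNAs sought by name miR-205 alone was listed, at 1.29 RPM in PMM and 3.68 RPM in LDM. PN and PC rows do not carry such names, so the others are not shown to be absent. miR-429-3p, of the miR-200 family of epithelium, was not among the 5 and had 3 normalised reads in PMM and 0 in LDM. PN-24-3p and PN-31-3p begin with the same bases as miR-429-3p. PN-24-3p had 45 normalised reads in PMM and 14.96 in LDM, and PN-31-3p had 15 in PMM and 14.96 in LDM. The part of these cell types in the PN ratios was not tested.

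A miRNA is cut from an RNA hairpin, and the strands from the 5′ and the 3′ side of the stem are called the 5p and the 3p arm. One arm usually enters the silencing complex and is then far more abundant than the other. The mature miRNA finds messenger RNAs mainly through its seed, here bases 2 to 8, so miRNAs that share a seed are grouped as a family even where the rest of the sequence differs. Muscle fibres are known for a few very abundant miRNAs, and most others are present at far lower levels.

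The most abundant PN entries are shown first beside the ssc entries that carry the same seed, because these few rows hold most PN reads. Sequences are the consensus sequences of the table, written 5′ to 3′ with T for U, and capitals mark the seed.
PN-17-3p: aACTGGCCcacaaagtcccgct
ssc-miR-193a-3p: aACTGGCCtacaaagtcccagt
PN-15-3p: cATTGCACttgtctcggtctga
ssc-miR-92a-1-3p, joined with ssc-miR-92a-2-3p: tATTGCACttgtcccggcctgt
PN-13-5p: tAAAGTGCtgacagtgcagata
PN-14-5p: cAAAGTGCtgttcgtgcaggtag
ssc-miR-17-5p: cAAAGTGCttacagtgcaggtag
ssc-miR-20-5p: tAAAGTGCttatagtgcaggtag
PN-2-5p: tGATATGTttgatatattaggtt
ssc-miR-190-5p: tGATATGTttgatattgggttg
The next rows are PN entries whose level differed at least 2-fold between the libraries and whose seed no ssc entry carries.
PN-75-5p: cTCCGTTTgcctgttttgctga
PN-8-3p: aGAATTGTggctggacatctgt
PN-72-5p: tACCCATTgcatatcggagttg
PN-53-3p: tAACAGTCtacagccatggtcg

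PN entries were mostly low, and a single row held the larger part of their reads. Together they reached 64733 normalised reads in PMM, or 0.757% of the library (95% Clopper-Pearson interval 0.751 to 0.762), and 77041 in LDM, or 0.880% (0.874 to 0.887). PN-17-3p alone had 37740 normalised reads in PMM and 58748 in LDM, which is 58.3% of the PN reads of PMM and 76.3% of those of LDM. Without it the order of the muscles turned round, with 26993 normalised reads in PMM (0.315%, 0.312 to 0.319) against 18293 in LDM (0.209%, 0.206 to 0.212). The difference in the PN total therefore rests on this one row. The 5 highest rows held 93.7% of PN reads in PMM and 94.4% in LDM.

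Over the 100 rows the median level was 10 normalised reads in PMM and 6.90 in LDM. A mean of both libraries of at least 10 RPM was reached by 18 PN entries, against 162 of the 281 ssc entries and 5 of the 287 PC entries. Of the remaining 82 PN entries, 29 lay between 1 and 10 RPM and 53 under 1 RPM. PN rows thus lay between the ssc rows, whose median of the mean was 17.6 RPM, and the PC rows, at 0.234 RPM, with a median of 0.968 RPM.

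**Figure D1:**
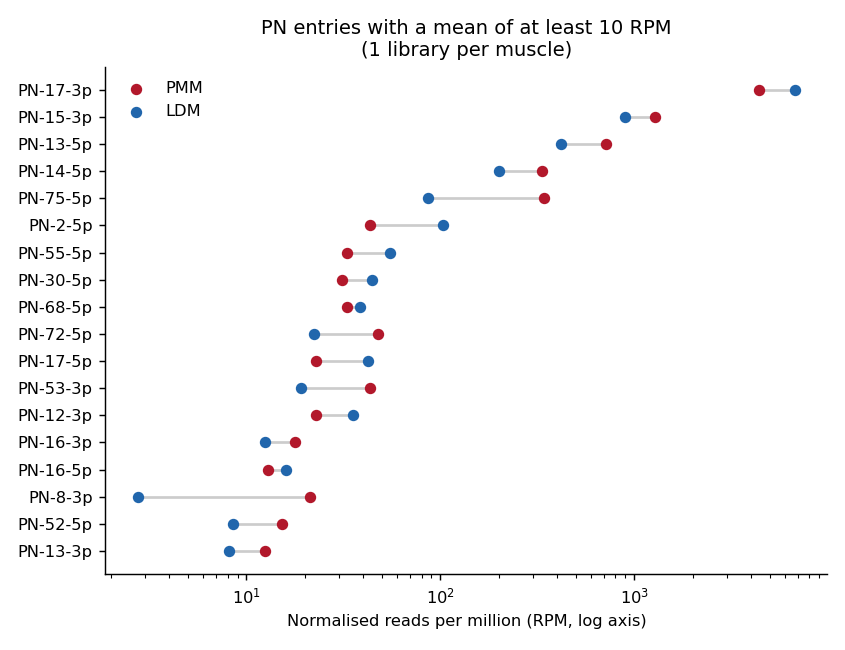
Level of the 18 PN entries whose mean reached 10 RPM, in RPM on a log axis, with 1 point for the PMM library and 1 for the LDM library and a line joining them. PN-17-3p stands at 4411 RPM in PMM and 6714 RPM in LDM, and the widest gap is that of PN-8-3p, at 21.2 RPM in PMM and 2.76 RPM in LDM.

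PN sequences were of the length of mature miRNAs. They measured 19 to 26 nt, against 17 to 26 nt in ssc rows and 18 to 25 nt in PC rows, with a median of 22 nt in all 3 classes, and 88 of 100 were 21 to 23 nt long, against 258 of 281 ssc rows and 232 of 287 PC rows. Their median GC content was 45.5% (quartiles 39.1% and 54.5%), against 47.6% in ssc rows (40.9% and 54.5%) and 52.4% in PC rows (43.5% and 61.9%). The first base, which for many miRNAs is a U that sits in a pocket of the Argonaute protein, was T in 41 PN rows, A in 29, C in 23 and G in 7. T stood first in 39.1% of ssc rows and 37.3% of PC rows.

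Length varied little with level, while GC content varied widely among members. The median was 22 nt in the 5 rows over 100 RPM, the 13 rows from 10 to 100 RPM, the 29 rows from 1 to 10 RPM and the 53 rows below. The lowest GC contents were those of PN-16-3p (19.05%), PN-2-5p (21.7%) and PN-2-3p (22.7%). The highest were those of PN-27-5p (81.0%), PN-12-3p (78.3%) and PN-27-3p (77.3%), and each of these PN numbers is listed with both arms.

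The length column of the table disagreed with the printed sequence in 8 PN rows and in none of the ssc and PC rows. PN-33-5p is a sequence of 23 nt listed as 26 nt, and PN-33-3p one of 26 nt listed as 23 nt, so that each carries the length of the other. The sequence of the row that joins PN-10-5p and PN-26-5p has 25 nt and is listed with 17 nt. The others were PN-27-5p, PN-60-3p, PN-28-3p, PN-36-3p and PN-18-3p, with differences of 1 to 3 nt. All of these rows are low, with at most 35 normalised reads in PMM and 39.1 in LDM, and lengths above were taken from the sequences.

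**Figure D2:**
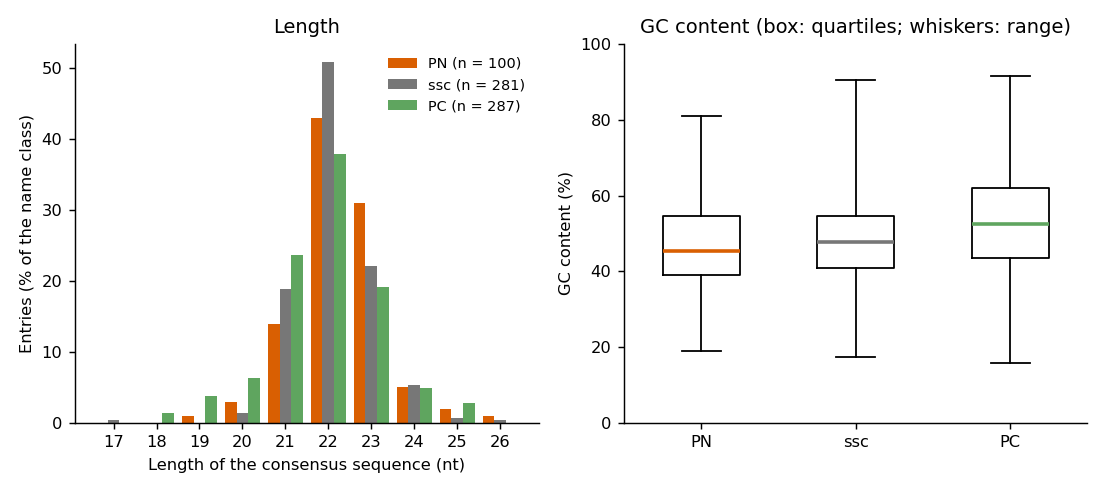
Length of the consensus sequence in nt, as the percentage of entries of each name class, and GC content in percent for PN, ssc and PC entries. Boxes span the quartiles with the median as a coloured line, and whiskers span the range. The PN box (median 45.5%) overlaps those of ssc (47.6%) and PC (52.4%) and has the lowest median of them.

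Arms were named for every row, with 44 PN rows on the 5p and 56 on the 3p arm. The rows carry 71 different PN numbers up to 82, and 2 rows join several numbers under 1 sequence, with 3 names and 2 names. Both arms were listed for 32 numbers and 1 arm for 39. The 3p rows held more reads, with 50341 normalised reads in PMM and 67724 in LDM, against 14392 in PMM and 9316 in LDM on the 5p rows, and PN-17-3p again makes up most of the 3p sum.

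Paired arms of 1 PN number formed about as many base pairs as paired ssc arms. Folded together, the 5p and 3p sequences of the 32 numbers formed a median of 17 base pairs (13 to 20), and 123 pairs of ssc arms also formed a median of 17 (7 to 20). The median folding energy was -20.8 kcal/mol in PN pairs and -21.7 kcal/mol in ssc pairs. No arms of different numbers are set beside them, so these values do not show that arms of 1 number pair better than unrelated ones. The arms were of more equal level in PN than in ssc pairs, with a median ratio of the higher to the lower arm of 3.09 (1.04 to 1960) against 43.7 (1.03 to 71535). Low PN rows near the listing limit of 3 reads cannot show a large ratio, so these medians are not at like depth.

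At least 20 reads in each library were available for 16 PN numbers. In 9 of them 1 arm was at least 10-fold higher than the other, and the dominant arm was 5p in 9 and 3p in 7. The same counts were not made for ssc pairs at this depth. PN-15 was the most one-sided, with its 5p arm at 0.0454% of both arms in PMM (0.0148 to 0.106) and 0.0590% in LDM (0.0161 to 0.151). PN-16 used both arms nearly equally, with 42.2% of reads on the 5p arm in PMM (36.2 to 48.4) and 56.2% in LDM (49.3 to 62.9), intervals that do not overlap.

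The listed reads of PN-44 lay mostly on the 5p arm in PMM and on the 3p arm in LDM. Its 5p arm held 85.7% of reads in PMM (67.3 to 96.0), or 24 of 28 reads, and 11.5% in LDM (4.74 to 22.2), or 7 of 61 reads. PN-44-3p had 4 normalised reads in PMM and 62.1 in LDM, and PN-44-5p had 24 in PMM and 8.06 in LDM, so the arms moved in opposite directions. This number was singled out after its values were seen, and it rests on few reads. PN-44-5p also differs from miR-34c-5p at only 2 bases, and stood at 1.71% of it in PMM and 1.58% in LDM. How reads were shared between such rows is not given, so the arm shares of PN-44 are uncertain. PN-14 kept its dominant arm, with 99.4% of reads on 5p in PMM (99.1 to 99.7) and 97.3% in LDM (96.4 to 98.1). There too the arms moved apart, since PN-14-5p had 2852 normalised reads in PMM and 1746 in LDM, and PN-14-3p had 17 in PMM and 48.3 in LDM.

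**Figure D3:**
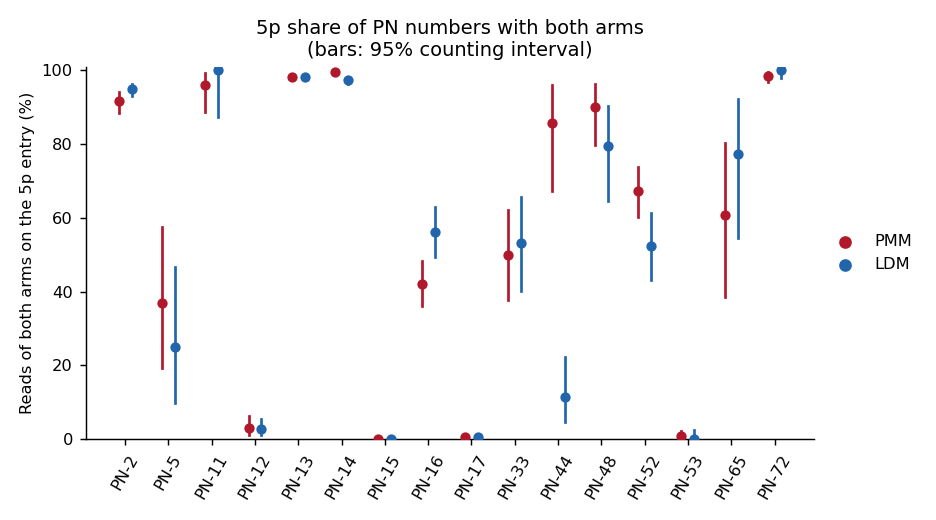
Percentage of the reads of both arms that fell on the 5p entry, for the 16 PN numbers with at least 20 reads in each library, with PMM and LDM side by side and bars for the 95% Clopper-Pearson counting interval. An arm listed at 0 is drawn as 0 although it may have had up to 2 reads. PN-44 stands at 85.7% in PMM and 11.5% in LDM, and its 5p entry differs from miR-34c-5p at only 2 bases, so its shares are uncertain.

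The comparison of the muscles asked which PN entries differ in level between oxidative and glycolytic muscle. Of the 18 PN entries whose mean reached 10 RPM, 4 passed 2-fold upwards in PMM and 1 passed it downwards, on the log2 scale with a pseudocount of 1 RPM. Over all 185 entries at that level, 21.6% were at least 2-fold higher and 6.49% at least 2-fold lower, so 4 and 1 of 18 lie near what the whole table gives. The PN median log2 ratio of PMM over LDM was 0.47, and that of the 185 entries 0.35, a factor of 1.28 that separates the middle of the 2 libraries. Relative to that middle 2 PN entries were called higher and 4 lower, beside 13% and 11.4% of the 185. With library totals taken without the 10 highest entries the PN counts were 2 higher and 5 lower, beside 12.4% of the 185 in each direction. By sign alone 10 of the 18 were higher in PMM and 8 lower, both as deposited and relative to the middle, while of the 185 entries 71.4% were higher as deposited and 49.7% relative to the middle. PN-8-3p, PN-52-5p and PN-13-3p, all among the 10, were under 10 RPM in LDM and passed the filter only through PMM. None of the 8 passed through LDM alone, and such entries were not counted over the 185.

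PN-8-3p showed the largest ratio of the 18, with 181 normalised reads in PMM and 24.2 in LDM, 7.49-fold higher in PMM (95% counting interval 4.75 to 12.4). It reached the mean of 10 RPM only through PMM, at 21.2 RPM against 2.76 RPM in LDM. PN-75-5p, the fifth PN entry in level, had 2916 in PMM and 756 in LDM and was 3.86-fold higher. PN-53-3p had 371 in PMM and 167 in LDM (2.22-fold higher, 1.83 to 2.71). PN-72-5p had 406 in PMM and 194 in LDM (2.09-fold higher, 1.74 to 2.51). These are the 4 entries called higher as deposited, and PN-8-3p and PN-75-5p are the ones that stayed over 2-fold relative to the middle of the libraries, with log2 values of 2.18 and 1.58.

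PN-2-5p was the entry called lower, with 373 normalised reads in PMM and 906 in LDM, 2.43-fold lower in PMM (2.14 to 2.75). Its partner arm PN-2-3p had 34 in PMM and 49.5 in LDM, with an interval that holds no difference (1.46-fold lower, 0.907 to 2.35). PN-17-3p, at 1.56-fold lower, and PN-17-5p, with 195 in PMM and 369 in LDM (1.89-fold lower, 1.58 to 2.28), moved the same way on both arms of 1 PN number. PN-55-5p had 284 in PMM and 481 in LDM (1.69-fold lower, 1.45 to 1.98), and PN-12-3p, a row of 78.3% GC, had 195 in PMM and 312 in LDM (1.60-fold lower, 1.33 to 1.93). PN-30-5p had 267 in PMM and 388 in LDM, 1.45-fold lower (1.23 to 1.71). PN-68-5p, the longest of the 18 at 24 nt, had 284 in PMM and 338 in LDM, 1.19-fold lower (1.01 to 1.41).

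The other 6 of the 10 entries higher in PMM differed by less than 2-fold. PN-15-3p had 10997 normalised reads in PMM and 7802 in LDM, 1.41-fold higher (1.37 to 1.45), which is close to the middle of the libraries. PN-13-5p had 6120 in PMM and 3650.1 in LDM (1.68-fold, 1.61 to 1.75), and its 3p arm had 107 in PMM and 71.3 in LDM (1.4997-fold, 1.09 to 2.09). PN-14-5p was 1.63-fold higher (1.53 to 1.74). PN-52-5p had 130 in PMM and 74.8 in LDM, 1.74-fold higher (1.28 to 2.38), while PN-52-3p, at 63 in PMM and 67.9 in LDM, differed by less than its counting error. PN-16-3p, the row lowest in GC, had 152 in PMM and 109 in LDM (1.39-fold higher, 1.07 to 1.82), and PN-16-5p, at 111 in PMM and 140 in LDM, was the 1 entry of the 18 whose interval holds no difference, which 14.1% of the 185 did.

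**Figure D4:**
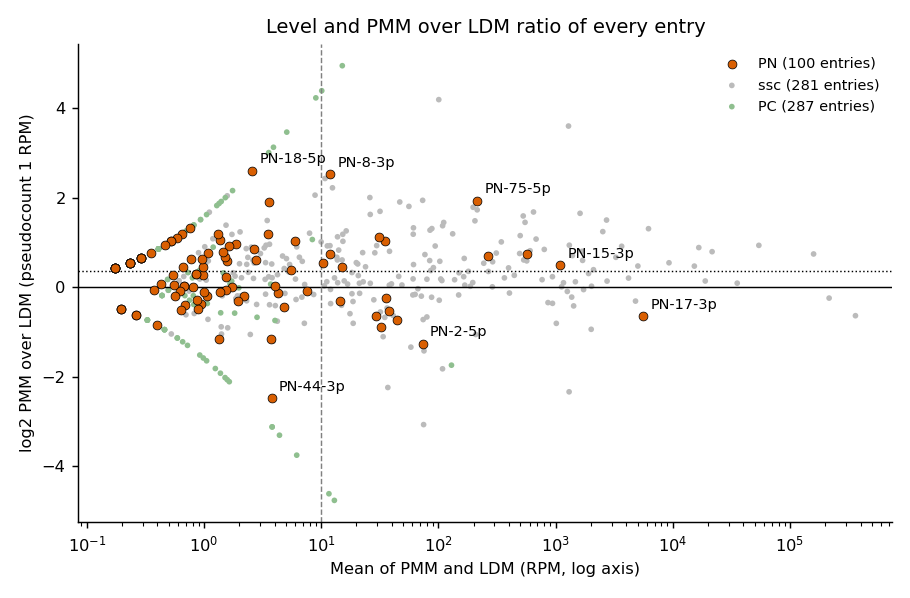
log2 ratio of PMM over LDM with a pseudocount of 1 RPM against the mean level in RPM on a log axis, 1 point per entry, for PN, ssc and PC entries. The dashed line marks 10 RPM, the solid line equal values and the dotted line the median of the 185 entries at or over 10 RPM (0.35), and most PN points lie left of 10 RPM, where the few reads fan the points out.

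Most PN entries below 10 RPM could not be told apart between the libraries at this depth. Of these 82, 50 were listed in both libraries, and the counting interval held equal values in 39 of them, lay above 1 in 8 and below 1 in 3. These are 16% and 6% of the 50, near the 17.9% and 7.14% of all 168 entries of that level listed in both libraries. PN-51-3p was the furthest above, with 54 normalised reads in PMM and 8.06 in LDM (6.70-fold higher, 3.04 to 17.5). PN-24-3p had 45 in PMM and 14.96 in LDM (3.01-fold higher, 1.59 to 6.08), and PN-11-5p had 72 in PMM and 31.1 in LDM (2.32-fold higher, 1.47 to 3.75). The 3 below 1 were PN-44-3p (15.5-fold lower in PMM, 5.73 to 59.1), PN-27-5p with 4 in PMM and 19.6 in LDM, and PN-14-3p. These entries were picked for their intervals after the values were seen.

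Rows listed at 0 in 1 library made up 32 of the 100. PN entries listed at 0 in LDM numbered 26, and 36.5% of all rows were at 0 there, with 29 of 281 ssc and 189 of 287 PC rows. PN entries listed at 0 in PMM numbered 6, against 11.2% of all rows, with 4 ssc and 65 PC rows. The table lists no value under 3 reads, so a 0 allows up to 2 reads. Most such PN rows were near that limit, since 22 of the 26 had under 10 reads in PMM and all 6 had under 10 reads in LDM.

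PN-18-5p was the highest PN entry listed in PMM alone, with 44 normalised reads in PMM and 0 in LDM, at least 12.7-fold higher when LDM is set to its floor of 3 reads, a floor used for each library (lower counting limit 4.09). Its other arm PN-18-3p had 3 in PMM and 0 in LDM. PN-36-3p followed with 13 in PMM and 0 in LDM (at least 3.77-fold higher), and PN-59-3p with 11 in PMM and 0 in LDM (at least 3.19-fold higher, lower counting limit 0.842). The highest listed in LDM alone was PN-6-5p, with 0 in PMM and 6.90 in LDM, or 2.30-fold lower in PMM when PMM is set to its floor. That value rests on 6 reads in LDM against 3 and carries no counting limit, so it is not a firm minimum. PN-20-3p and PN-7-3p each had 0 in PMM and 4.603 in LDM.

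Seeds were shared between some PN rows and named pig miRNAs. Bases 2 to 8 were shared with an ssc row by 25 PN rows (25%), and by 5 of the 287 PC rows (1.74%). The 25 rows carry 19 seeds, which 28 ssc rows share. They held 90.5% of PN reads in PMM and 95.1% in LDM, and 6 of them reached 10 RPM, against 12 of the 75 rows with other seeds. Their median GC content was 39.1%, against 47.8% in the 75, and their median length 23 nt against 22 nt. With bases 2 to 7 alone the counts were 30 PN and 23 PC rows. A shared seed says that these rows read alike at those bases and does not show that they came from the same gene.

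The miR-17 seed family, whose members are transcribed from the miR-17-92 cluster and its paralogs and are known for cell growth, held 3 PN rows, PN-13-5p, PN-14-5p and PN-81-5p. All 3 had higher values in PMM under each scaling, and PN-81-5p, at 18 normalised reads in PMM and 8.06 in LDM, did so within its counting error (0.891 to 6.33). Named members were miR-17-5p, with 1590 normalised reads in PMM and 690.4 in LDM (2.30-fold higher, 2.10 to 2.53), and miR-20-5p, with 1062 in PMM and 557 in LDM (1.91-fold higher, 1.71 to 2.13). PN-13-5p and PN-14-5p exceeded both in level, and their intervals lay below that of miR-17-5p and overlapped that of miR-20-5p. PN-15-3p shares its seed with 4 ssc rows of the miR-92 family. miR-92a-3p, a miRNA of the same cluster that is known to act in endothelium, had 17667 in PMM and 11660.4 in LDM, 1.52-fold higher (1.48 to 1.55). miR-92b-3p had 72 in PMM and 34.5 in LDM, miR-32-5p 52 in PMM and 39.1 in LDM, and miR-363-3p 20 in PMM and 16.1 in LDM. All 5 rows of this family had higher values in PMM as deposited, but miR-32-5p and miR-363-3p, whose intervals hold equal values, lay below 0 relative to the middle of the libraries.

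In 4 seed groups the PN row had a lower and the named miRNA a higher value in PMM, under each scaling, with intervals that did not overlap. PN-17-3p was 1.56-fold lower in PMM (1.54 to 1.58), whereas miR-193a-3p, at 758 normalised reads in PMM and 297 in LDM, was 2.55-fold higher (2.21 to 2.95). PN-2-5p was 2.43-fold lower, whereas miR-190-5p, at 162 in PMM and 23.01 in LDM, was 7.04-fold higher (4.41 to 11.8). PN-16-5p, whose own interval holds equal values, lay under miR-21-5p, a miRNA raised in injured and fibrotic tissue, which had 50550 in PMM and 36415 in LDM (1.39-fold higher, 1.37 to 1.41). PN-44-3p was lower in PMM, whereas miR-34c-3p, of the p53-responsive miR-34 family, had 24 in PMM and 5.75 in LDM. On the other arm PN-44-5p and miR-34c-5p were both higher in PMM, with miR-34c-5p at 1402 in PMM and 509 in LDM (2.76-fold higher, 2.48 to 3.07). These rows differ at only 2 bases, and how reads were shared between them is not given.

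Over the 29 pairs of a PN and an ssc row that share a seed and are both listed in both libraries, the intervals overlapped in 20, the PN row lay below in 8 and above in 1. Some rows stand in several pairs, and few reads widen the intervals. No like count was made for pairs of ssc rows, so these counts do not show a trait particular to PN rows. The 1 above was PN-51-3p against miR-130a-3p, which had 339 normalised reads in PMM and 174 in LDM (1.95-fold higher, 1.61 to 2.38). PN-50-3p and PN-59-3p carry that seed too, and miR-130b-3p, at 363 in PMM and 84.0 in LDM, was 4.32-fold higher (3.35 to 5.64). PN-24-3p and PN-31-3p share the seed of miR-429-3p, of the miR-200 family of epithelium, which had 3 in PMM and 0 in LDM. PN-31-3p had 15 in PMM and 14.96 in LDM, and of this trio PN-24-3p alone differed beyond its counting error.

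**Figure D5:**
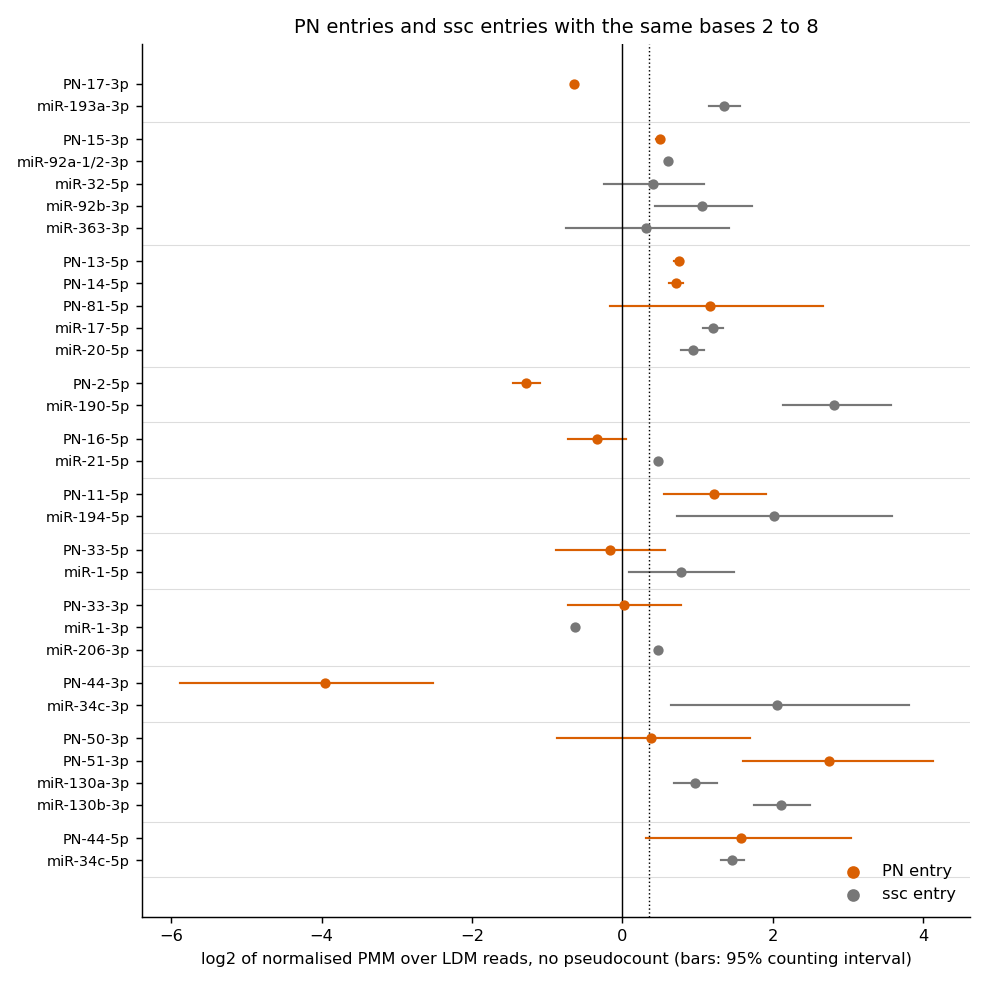
log2 of the ratio of PMM over LDM without pseudocount for PN entries and the ssc entries that share their bases 2 to 8, for entries listed in both libraries with at least 20 reads in all, with bars for the 95% counting interval. The solid line marks equal values and the dotted line the median of the 185 entries at or over 10 RPM. PN-17-3p, PN-2-5p, PN-16-5p and PN-44-3p lie left of 0 and their named partners right of it.

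Some PN rows were almost the same molecule as a named miRNA. Compared without gaps over at least 19 nt, with starts at most 1 base apart and at most 2 differing bases, 11 PN rows matched an ssc row, 3 of them with no difference, 5 with 1 and 3 with 2. The pairs below show the bases that differ, or that extend past the end of the other row, in capitals.
PN-33-3p: tggaatgtaaagaagtatgtatTTTT
ssc-miR-1-3p: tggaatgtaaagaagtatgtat
PN-33-5p: acatacttctttatgtAcccatA
ssc-mir-1-5p: acatacttctttatgtGcccat
PN-48-3p: tagcaccatttgaaatcagtgttT
ssc-miR-29b-3p: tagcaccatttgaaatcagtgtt
PN-6-5p: Ctggaagactagtgattttgttgtt
ssc-miR-7-5p: tggaagactagtgattttgttgtt
PN-49-5p: taggtagtttcAtgttgttgggC
ssc-miR-196b-5p: taggtagtttcCtgttgttggg
PN-11-5p: tgtaacagcAactccatgtgga
ssc-miR-194-5p: tgtaacagcGactccatgtggaC
PN-81-5p: caaagtgctCacagtgcaggtag
ssc-miR-17-5p: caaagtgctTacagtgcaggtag

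PN-33-3p holds the whole of miR-1-3p, a miRNA of striated muscle, and runs on for a few bases more. It had 35 normalised reads in PMM and 34.5 in LDM, against 2454768 in PMM and 3817996 in LDM for miR-1-3p. PN-33-5p, on the other arm, had 35 in PMM and 39.1 in LDM, against 55 in PMM and 32.2 in LDM for miR-1-5p, so that on this arm the PN and the ssc row stood at like levels. PN-48-3p, which extends miR-29b-3p, a miRNA that represses collagens, by 1 base, had 6 in PMM and 10.4 in LDM, and miR-29b-3p had 791 in PMM and 970.1 in LDM. How reads that fit both rows of such a pair were shared between them is not given in the sources used here, so the levels of these rows are uncertain.

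Some near-identical rows exceeded the named miRNA in both libraries. PN-11-5p had 72 normalised reads in PMM and 31.1 in LDM, against 28 in PMM and 6.90 in LDM for miR-194-5p. PN-48-5p had 55 in PMM and 40.3 in LDM, against 5 in PMM and 5.75 in LDM for miR-29b-5p. PN-13-5p also exceeded miR-106a-5p, at 4 in PMM and 4.603 in LDM, which it matches with a start shifted by 1 base. Their seeds therefore differ, and the listed miR-106a-5p lies wholly within miR-17-5p, at 1590 in PMM and 690 in LDM. How reads were shared between these ssc rows is not given, so the low level of miR-106a-5p is uncertain. PN-55-5p holds the whole of a PC row, PC-270-5p, which had 0 in PMM and 4.603 in LDM. PN-81-5p was at 1.13% of miR-17-5p in PMM and 1.17% in LDM, and PN-44-5p at 1.71% of miR-34c-5p in PMM and 1.58% in LDM. PN-49-5p had 4 in PMM and 0 in LDM beside miR-196b-5p, whose gene lies among HOX genes, at 1644 in PMM and 81.7 in LDM.

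A further 3 sequence pairs were complementary to each other over nearly their whole length, as strands of opposite direction are. In each pair the capitals mark the run of exact complement, read backwards in the second sequence.
PN-8-3p: AGAATTGTGGCTGGACATCTgt
PN-9-5p: AGATGTCCAGCCACAATTCTcg
PN-9-3p: AGAATTGCGTTTGGACAATCAgt
ssc-mir-219-5p: TGATTGTCCAAACGCAATTCTcg
PN-5-3p: AACACCATTGTCACACTCCAca
ssc-mir-122-5p: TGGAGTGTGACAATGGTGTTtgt
The runs measured 20, 21 and 20 nt, and 16 nt was the shortest run sought. PN-8-3p, the PN entry with the largest ratio above 10 RPM, had 181 normalised reads in PMM and 24.2 in LDM, while PN-9-5p had 6 in PMM and 3.45 in LDM. PN-9-3p had 0 in PMM and 3.45 in LDM beside miR-219-5p, a miRNA of the nervous system, at 11 in PMM and 5.75 in LDM. PN-5-3p had 17 in PMM and 20.7 in LDM beside miR-122-5p, the main miRNA of liver, at 10 in PMM and 8.06 in LDM. With no genome of the authors' build used here, the positions of these rows were not analysed.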

How the data were processed

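Small RNA of 10 to 40 nt was isolated from a gel and read single-end over 36 bp on a Genome Analyzer, per the labels. The deposited table holds 1 normalised signal per entry and library, which the authors scaled from reads. The submitters' processing notes name the build Sscrofa 10.2, and how reads were mapped and normalised is not stated there. PMM values were whole reads and LDM values whole multiples of 1.15 units (tolerance 0.001), except in the row of miR-23a-3p, so reads were recovered by division. In that row the LDM value of 11204 was whole and the PMM value of 6394.66 was not, and both were used as deposited. Whether these values stand in exchanged columns was not tested. The column of the authors' p-value, deposited as a Fisher exact test of the 2 libraries, was not used.

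Members, gene lists and comparisons were chosen with earlier results of these data known. log2 ratios carry a pseudocount of 1 RPM, or 8.65 units of the mean library, and understate the change of low entries, while fold values carry none. Intervals of ratios are exact conditional binomial ones at 95%, and those of shares are Clopper-Pearson ones. Reads had no molecular identifiers. Named were PN entries whose mean reached 10 RPM and their partner arms, and the 3 highest listed in 1 library alone. Others named were chosen after their values were seen. Arms were folded with duplexfold of ViennaRNA 2.7.2. Tables were handled in pandas 2.3.3 with numpy 2.4.6 under Python 3.11.15, intervals came from scipy 1.17.1, and figures from matplotlib 3.10.9. Scripts were first tested on simulated data. With 1 library per muscle no count test across animals could be run. A match with annotated mature miRNAs was planned, but no such sequence table was at hand, so it was not analysed here.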

Additional observations from a re-analysis of the deposited data

How the results depend on the processing

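No paired analysis was possible because each muscle had 1 library, and no replicate could be left out for the same reason. The counts of PN entries at least 2-fold higher and lower in PMM were 4 and 1. Centring each ratio on the median gave 2 and 4 (all entries 13.0% and 11.4%), and library totals less their 10 highest entries gave 2 and 5 (12.4% each). Without a filter on low values the counts were 15 and 4 of 100 (12.6% and 5.24% of all 668), and among entries over 100 RPM 1 and 0 of 5 (20.9% and 4.40% of 91). With a pseudocount of 10 RPM they were 2 and 1 (17.8% and 5.95%). Called at 1.5-fold they were 7 and 5 (40% and 13.5%), and called at 4-fold 1 and 0 (4.32% and 2.70%). Centring took the same median of 0.35 from every log2 ratio. The smaller total multiplied PMM values by 0.77 relative to LDM, which lowered every ratio except those of entries at 0 in PMM. The filters change the number of entries counted. The median PN log2 ratio ranged from 0.10 to 0.71 over these settings. Of the library totals without the 10 highest entries, PN rows held 7.17% in PMM and 11.1% in LDM. With under 10 reads counted as 0, 49 PN rows were at 0 in PMM and 64 in LDM, against 52.4% of all rows in PMM and 57.2% in LDM. PN-15-5p, at 5 reads in PMM and 4 in LDM, changed sign from a log2 ratio of 0.043, with a log2 ratio of -0.31 after centring and -0.084 with the smaller total. The other 30 of the 31 entries named by level, arm or listing in 1 library kept their direction. Entries already lower in PMM could not turn, because both rescalings lower a ratio or leave it and a pseudocount keeps its sign. The kept direction therefore tells something only about entries higher in PMM. Entries named after their values were seen were not in this check. Among them centring turned the log2 ratio of PN-50-3p from 0.23 to -0.12 and that of PN-9-5p from 0.28 to -0.077. It also turned PN-33-3p from 0.016 to -0.34 and PN-31-3p from 0.0025 to -0.35. The planned match with annotated mature miRNAs was not run.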
